A study of Mus musculus with 13 samples.

Results

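Bile duct cells modify bile by secreting chloride, bicarbonate and water, and 10 genes of that secretion were followed here: *Sctr*, *Cftr*, *Ano1*, *Slc4a2*, *Slc4a4*, *Car2*, *Slc12a2*, *Atp1b1*, *Aqp1* and *Aqp8*, of 55353 genes counted. Their unique molecular identifiers (UMIs, 1 per captured transcript copy) were read in biliary epithelial cells (BEC), defined as barcodes with at least 1500 UMIs, at least 2 of *Epcam*, at least 2 of *Krt7* and *Krt19* together and 0 of *Ptprc*. Of 95563 cells, 3848 met this definition. They were divided by the secreted and membrane mucin-type genes *Dmbt1* and *Muc4* into 1063 mucin-high BEC (at least 3 UMIs of both genes together), 2652 mucin-zero BEC (0 UMIs) and 133 mucin-low BEC (1 or 2 UMIs). *Dmbt1*, *Muc4* and the genes of the BEC definition chose the cells and are not read as results.

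The libraries are droplet single-cell RNA-seq of liver from male C57BL/6J mice aged 6 to 12 weeks. Chow with 0.1% of the xenobiotic DDC (3,5-diethoxycarbonyl-1,4-dihydrocollidine), which induces cholangitis and a ductular reaction, was fed for 0, 3, 5, 9, 19 or 25 days (D0 to D25), and each day had a library from isolation protocol A and another from protocol B. In STOP B, made by protocol B alone, recovery of 7 days followed the diet, whose length its labels give as 18 or 19 days. Day 0 is called steady state, D3 and D5 onset, and D9, D19 and D25 progression. All mice were of this 1 strain, with no engineered allele named. In the library labelled D19 B by its title, another label gives 18 days, and the study counted those samples as 1 time point. Both protocols mixed sorted populations, Epcam+ cells among them, so the number of BEC in a library reflects the sort as well as the liver. No label ties a library to its animals, and the p-values below measure the spread between libraries.

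Secretin released after a meal acts on its receptor on the cholangiocyte and raises cAMP, which opens the CFTR chloride channel in the apical membrane. Chloride that leaves the cell is exchanged for bicarbonate, and water follows through aquaporins. The sodium pump, the loading of ions across the basal side and carbonic anhydrase supply what is secreted, and a calcium-gated chloride channel gives chloride another exit. In the liver this watery bicarbonate secretion is known mainly from cholangiocytes of larger ducts.

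RefSeq promoter sequences (GRCm38.p6) were at hand for 7 of the 10 genes, and the 250 bases before the annotated start are shown for the 4 whose levels separated the classes of BEC most clearly or turned on another cell type. *Cftr* starts on the plus strand after chr6:18170437-18170686, *Slc4a4* after chr5:88887010-88887259 (start 1) and chr5:89027716-89027965 (start 2), *Aqp1* after chr6:55336049-55336298 and *Aqp8* after chr7:123462044-123462293, all on the plus strand. Capitals mark matches, on either strand, to the motifs searched: the GC box GGGCGG, the CCAAT box CCAAT, the TATA box TATAAA, the cAMP-response half-site TGACG and the SOX core AACAAT.
Cftr: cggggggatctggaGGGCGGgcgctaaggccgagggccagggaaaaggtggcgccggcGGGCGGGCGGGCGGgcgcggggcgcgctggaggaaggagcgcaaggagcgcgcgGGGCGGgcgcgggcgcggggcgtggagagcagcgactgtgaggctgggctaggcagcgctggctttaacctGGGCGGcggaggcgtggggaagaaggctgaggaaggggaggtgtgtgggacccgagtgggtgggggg
Slc4a4 start 1: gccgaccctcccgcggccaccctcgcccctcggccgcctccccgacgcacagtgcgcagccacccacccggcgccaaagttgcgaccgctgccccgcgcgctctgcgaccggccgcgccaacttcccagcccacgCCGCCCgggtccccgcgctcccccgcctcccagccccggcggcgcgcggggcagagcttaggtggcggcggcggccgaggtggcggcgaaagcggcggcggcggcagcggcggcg
Slc4a4 start 2: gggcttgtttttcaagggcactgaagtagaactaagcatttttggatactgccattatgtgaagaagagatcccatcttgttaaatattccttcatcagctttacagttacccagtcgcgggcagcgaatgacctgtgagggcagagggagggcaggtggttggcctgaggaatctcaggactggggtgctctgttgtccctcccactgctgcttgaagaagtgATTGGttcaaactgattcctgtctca
Aqp1: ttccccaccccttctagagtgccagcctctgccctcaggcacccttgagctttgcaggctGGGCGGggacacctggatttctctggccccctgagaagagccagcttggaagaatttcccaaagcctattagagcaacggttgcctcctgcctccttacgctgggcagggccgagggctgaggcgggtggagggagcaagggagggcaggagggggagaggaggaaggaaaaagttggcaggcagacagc
Aqp8: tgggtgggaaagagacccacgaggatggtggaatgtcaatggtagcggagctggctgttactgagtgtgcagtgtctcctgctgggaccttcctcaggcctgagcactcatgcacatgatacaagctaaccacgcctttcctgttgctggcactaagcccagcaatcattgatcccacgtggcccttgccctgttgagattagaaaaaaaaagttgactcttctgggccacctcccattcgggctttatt

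The *Cftr* window held 6 GC boxes, 3 of them overlapping, in 76.4% G and C. The first *Slc4a4* window held 1 GC box on the opposite strand in 82% G and C, whereas the second held 1 CCAAT box on the opposite strand in 48.8%. The *Aqp1* window held 1 GC box in 62% G and C. The *Aqp8* window held none of these motifs in 52.4% G and C, a share equal to the median of all 32851 promoters of this length. Among those promoters a GC box was found in 32.7%, a CCAAT box in 33.8%, a TATA box in 12.4%, the cAMP half-site in 17.8% and the SOX core in 9.42%. These are matches of letters in a window and describe nothing beyond it. *Cftr* lies at chr6:18170687-18322768, *Slc4a4* at chr5:88886818-89239653, *Aqp1* at chr6:55336432-55348555 and *Aqp8* at chr7:123462291-123468004, all on the plus strand of GRCm38. These spans are from GENCODE and the windows from RefSeq, so window ends and gene starts need not meet. The first *Slc4a4* window lies inside the GENCODE span of its gene.

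The 13 libraries held 29307190 to 108602421 UMIs and 1541 to 14764 cells each, and no pair shared more than 49 cell barcodes (at most 0.519% of the smaller library). Values below are counts per 1000000 UMIs (CPM), taken over the summed UMIs of a class in 1 library, given where the class held at least 20 cells. That left 9 libraries with both mucin-high and mucin-zero BEC (D0 A, D3 B, D5 B, D9 A, D9 B, D19 B, D25 A, D25 B and STOP B) and 10 with mucin-zero BEC, D19 A being the tenth. The cholangiocyte markers *Sox9*, *Spp1*, *Cldn7*, *Krt8* and *Krt18* were detected in both classes in every one of these libraries. Together these 5 were lower in mucin-high BEC, at 7934 to 18788 CPM (median 12555) against 26338 to 40172 CPM (median 30977) in mucin-zero BEC, without overlap, and their part in the lower *Cftr* and *Sctr* of mucin-high BEC was not tested. Summed markers of 6 hepatocyte genes were at 1430 to 3375 and 759 to 6903 CPM, and those of 4 endothelial genes at 6.33 to 570 and 95.1 to 663 CPM. Median UMIs per cell were higher in mucin-high BEC in 7 of 9 libraries.

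The mucin-high BEC of D5 B (21 cells) and STOP B (29 cells) stood apart from those of the other libraries in *Sox17* CPM, D5 B more clearly. *Sox17*, a transcription factor of the extrahepatic bile duct lineage, was at 8.59 and 43.4 CPM in them against 73.7 to 205 CPM in the other 7 libraries. By share of cells with a *Sox17* UMI, D5 B was apart at 4.76%, whereas STOP B at 44.8% was like D9 B (44.7%) and D19 B (36.4%). The 4 summed mesenchymal markers reached 2472 CPM in mucin-high BEC of STOP B (1468 CPM in D25 B), and the 3 T-cell markers 60.1 CPM in those of D5 B. Macrophage markers were highest in another library, D3 B (22 cells), at 494 CPM against a median of 64.4 CPM. The proliferation genes *Mki67* and *Top2a* were highest in a further library, D19 B (55 cells), at 346 and 298 CPM. They were at 5.66 to 64.4 and 6.79 to 85.9 CPM in the mucin-high BEC of the other 8. D19 B held the lowest mucin-high *Ano1*, *Atp1b1* and *Aqp1* and the highest *Sctr*. Without it the same number of the 10 genes, 9, was called, beside 4182 to 5401 of all genes with any 1 library left out. Log2 fold changes without D19 B included 0.60 for *Ano1*, 0.92 for *Atp1b1*, 2.15 for *Aqp1* and -2.49 for *Sctr*. The fit of the duct classes was also run without D5 B and STOP B, and is given for the 10 genes but not for the wider list.

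All 10 genes differed between BEC and cells with no *Epcam*, *Krt7* or *Krt19*, and 9 of them were higher in BEC. Such cells numbered 79977 over 13 libraries, and those of the 10 libraries with at least 20 BEC were compared. Over 10 libraries, edgeR's quasi-likelihood test with library as a block called 31% of 17671 genes higher in BEC and 35.3% lower (Benjamini-Hochberg adjusted p under 0.05), so calls were common among all genes too. *Cftr* was at 36.1 to 104.7 CPM in BEC and at 0.403 CPM or less in the other cells, with an edgeR log2 fold change of 7.99 (SE 0.37) and an adjusted p = 2.34e-09. *Slc4a4* followed with 6.98 (SE 0.34), *Sctr* with 6.67 (SE 0.32), *Ano1* with 5.63 (SE 0.47), *Atp1b1* with 4.84 (SE 0.47), *Car2* with 4.20 (SE 0.24) and *Slc12a2* with 2.80 (SE 0.32). *Cftr* and *Sctr* had 68 and 48 UMIs in the other cells against 3215 and 869 in BEC. Both passed the filter on low counts through BEC, so their direction was largely fixed. *Aqp8*, a water channel, had 4.35 (SE 1.03, adjusted p = 0.00236), which fell short in the protocol B libraries alone (3.65, adjusted p = 0.0573). *Slc4a2*, an exchanger of chloride for bicarbonate that many cells carry, differed least, with 0.63 (SE 0.11, adjusted p = 0.000174). It missed the threshold without BEC of mixed lineage (0.27, adjusted p = 0.191). These are BEC with any UMI of the endothelial, mesenchymal, macrophage, T, B or neutrophil markers, while hepatocyte, NK and DC markers were not used. Leaving them out kept 697 of 3848 BEC, 163 of them mucin-high, so thresholds missed in that setting also rest on fewer cells. *Aqp1*, the water channel of capillary endothelium as well as of bile ducts, was the 1 gene lower in BEC, with a log2 fold change of -1.42 (SE 0.36) and an adjusted p = 0.00351. Within protocols it was -2.50 in A and -0.76 in B.

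By class of cell, *Cftr* and *Sctr* had a median of 0 CPM over libraries in every gate outside BEC. *Aqp1* was highest in the endothelial gate, at a median of 2875 CPM over 13 libraries (2249 to 3428). *Aqp8* reached 169 CPM in the hepatocyte gate, which held 72 cells in 2 libraries (113 and 226 CPM) and had *Slc4a4* at 44.0 CPM. *Ano1* was at a median of 32.5 CPM and *Slc4a4* at 48.4 CPM in the mesenchymal gate over 7 libraries. Natural killer cells held *Car2* at 304 CPM and *Atp1b1* at 101 CPM, medians over 9 libraries. *Aqp1* also had medians of 133 to 558 CPM in the 6 immune gates.

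**Figure D1:**
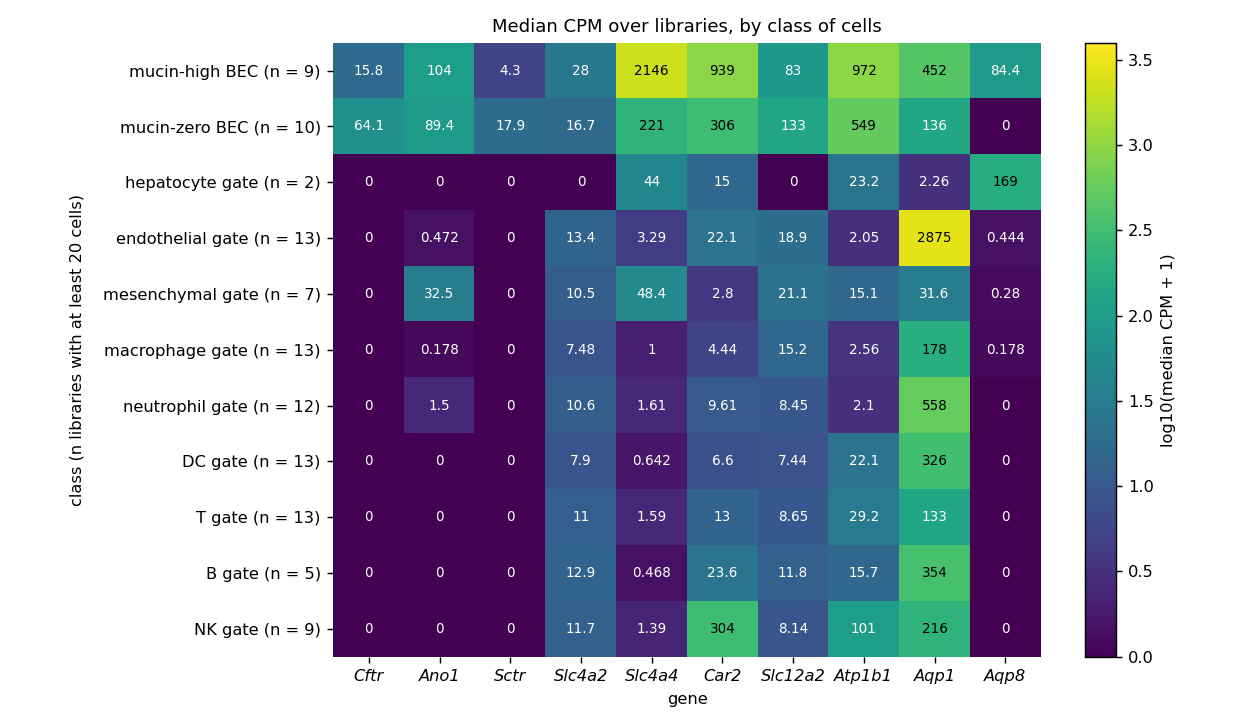
Median CPM over libraries of each gene (columns) in mucin-high and mucin-zero BEC and in 9 gates outside BEC (rows), colour on a log10 scale of CPM + 1. *Cftr* and *Sctr* show values in BEC rows and 0 elsewhere, and *Aqp1* is highest in the endothelial gate at 2875 CPM.

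Within BEC, 9 of the 10 genes differed between the classes, in both directions. In mucin-high BEC the secretin receptor *Sctr* and the chloride channel *Cftr* were lower. The bicarbonate transporters *Slc4a4* and *Slc4a2*, carbonic anhydrase *Car2*, the pump subunit *Atp1b1*, the channel *Ano1* and the water channels *Aqp1* and *Aqp8* were higher, and *Slc12a2* did not pass the test. Of 12735 genes tested over 9 libraries with library as a block, 19.7% were higher and 21.3% lower in mucin-high BEC. Against that background 7 of the 10 genes were higher and 2 lower, and their median log2 fold change was 0.88 beside -0.05 over all genes tested. *Aqp8*, 1 of the 7, was nearly absent from mucin-zero BEC, so its direction was largely fixed.

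*Sctr*, the receptor for secretin, ranged from 0 to 7.19 CPM in mucin-high BEC (median 4.30) and from 8.06 to 34 CPM in mucin-zero BEC (median 14.6). It was lower in mucin-high BEC in 9 of 9 libraries and the ranges did not overlap, with 65 against 744 UMIs in all. The log2 fold change was -2.38 (SE 0.27, edgeR adjusted p = 1.16e-05). With so few UMIs the values of single libraries are coarse.

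*Cftr*, the cAMP-opened chloride channel, ranged from 7.24 to 21.5 CPM in mucin-high BEC (median 15.8) and from 38.8 to 131 CPM in mucin-zero BEC (median 64.5). It was lower in mucin-high BEC in each of the 9 libraries, with no overlap, and the mean was 14.8 ± 4.04 CPM against 70.9 ± 26.3 CPM (SD, n = 9). The lowest mucin-zero value was that of steady state, D0 A, and the highest that of D19 B. The log2 fold change was -2.17 (SE 0.19, edgeR adjusted p = 8.08e-07), and it lay between -3.03 and -2.04 under every alternative tried. *Ano1*, the calcium-gated chloride channel, ranged from 67.4 to 198 CPM in mucin-high BEC (median 104) and from 63.0 to 113 CPM in mucin-zero BEC (median 91.9). The classes overlapped widely and mucin-high BEC were higher in 6 of 9 libraries, with the widest differences in D0 A, D5 B and STOP B. Its log2 fold change of 0.53 (SE 0.13, edgeR adjusted p = 0.00405) was 0.38 without D5 B and STOP B (adjusted p = 0.0192). It missed the threshold within protocol A alone (0.41, adjusted p = 0.0508), with classes from thinned cells (0.45, adjusted p = 0.0512) and without BEC of mixed lineage (0.29, adjusted p = 0.359).

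*Slc4a4*, which carries sodium with bicarbonate into the cell, differed most among the genes with UMIs in both classes of every library. It ranged from 318 to 3225 CPM in mucin-high BEC (median 2146) and from 117 to 275 CPM in mucin-zero BEC (median 218). No mucin-zero library reached the lowest mucin-high one, D5 B at 318 CPM, and the other 8 mucin-high values were 1289 CPM or more. The log2 fold change was 3.34 (SE 0.30, edgeR adjusted p = 1.21e-06). *Slc4a2* ranged from 12.9 to 37.7 CPM in mucin-high BEC (median 28.0) and from 8.69 to 29.1 CPM in mucin-zero BEC (median 17.4). It was higher in mucin-high BEC in 9 of 9 libraries although the ranges overlapped, with an edgeR log2 fold change of 0.91 (SE 0.16, adjusted p = 0.000491). Without BEC of mixed lineage it missed the threshold (1.11, adjusted p = 0.0598). *Slc4a2* overlaps *Fastk* on the opposite strand, with 1741 UMIs of *Fastk* and 1262 of *Slc4a2* in the BEC sums, and since the strand setting of the counting is not stated, reads of the pair may not be separable.

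*Car2*, the cytosolic enzyme that makes bicarbonate from carbon dioxide, ranged from 348 to 3234 CPM in mucin-high BEC (median 939) and from 137 to 402 CPM in mucin-zero BEC (median 309). It was higher in mucin-high BEC in 8 of 9 libraries, D5 B being the exception with 348 against 402 CPM, and the highest value was that of STOP B. The log2 fold change was 2.02 (SE 0.29, edgeR adjusted p = 8.37e-05).

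*Slc12a2*, which loads sodium, potassium and chloride from the basal side, was the 1 gene that did not pass the test. It ranged from 21.6 to 240 CPM in mucin-high BEC (median 83.0) and from 40.6 to 227 CPM in mucin-zero BEC (median 110), with a log2 fold change of -0.31 (SE 0.29, edgeR adjusted p = 0.436). Mucin-high BEC were higher in 3 libraries, namely D0 A, D5 B and STOP B. Without D5 B and STOP B the log2 fold change was -0.68 and passed (adjusted p = 0.0341), a choice made after the values were seen. *Atp1b1*, a subunit of the sodium pump, ranged from 691 to 1199 CPM in mucin-high BEC (median 972) and from 450 to 695 CPM in mucin-zero BEC (median 556). It was higher in mucin-high BEC in 9 of 9 libraries, the ranges touching only at their ends, with an edgeR log2 fold change of 0.86 (SE 0.15, adjusted p = 0.000315). *Atp1b1* overlaps *Nme7* on the opposite strand, which had 884 UMIs in the BEC sums beside 41955 of *Atp1b1*.

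*Aqp8* had 2751 UMIs in mucin-high BEC against 14 in mucin-zero BEC. It ranged from 0 to 184.5 CPM in mucin-high BEC (median 84.4), and both libraries at 0 were D5 B and STOP B. In mucin-zero BEC it was at 0 in 5 of 9 libraries and reached 1.45 CPM at most. The ratio of the pooled CPM was 378 (exact 95% interval 225 to 692, counting error only). *Aqp8* passed the filter on low counts through mucin-high BEC, so its direction was largely fixed and its call is no support. The edgeR log2 fold change was 8.10 (SE 0.33, adjusted p = 5.81e-09), a size that depends on the prior count added to libraries at 0. It was 3.62 with classes set on thinned cells. Taken per library, the log2 ratio of CPM + 1 had a mean of 4.78 and an SD of 2.83 over 9 libraries, a wide spread that the SE does not show. The summed hepatocyte markers, whose cells also hold *Aqp8*, had a median of 2187 CPM in mucin-high and 2195 CPM in mucin-zero BEC.

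*Aqp1* ranged from 202 to 1219 CPM in mucin-high BEC (median 452) and from 63.0 to 407 CPM in mucin-zero BEC (median 135). It was higher in mucin-high BEC in 9 of 9 libraries with overlapping ranges, and the log2 fold change was 1.97 (SE 0.33, edgeR adjusted p = 0.000266). In STOP B the classes hardly differed, at 417 and 407 CPM. Endothelial transcripts moved with the mucin-zero values. The ratio of *Aqp1* to 4 summed endothelial markers (*Pecam1*, *Cdh5*, *Kdr*, *Stab2*) was 0.448 to 0.812 in the endothelial gate, 0.199 to 1.15 in T cells and 0.319 to 1.13 in mucin-zero BEC. In mucin-high BEC it was 0.728 to 53.9 with a median of 2.87. In D25 B mucin-high BEC, *Aqp1* was at 341 CPM while the endothelial list was at 6.33 CPM, and in D3 B at 1219 CPM with the list at 28.7 CPM. In D5 B, STOP B and D19 B the mucin-high ratio was 0.728, 0.732 and 0.896, within the range of mucin-zero BEC. Without BEC of mixed lineage (697 cells left, 4 libraries with enough mucin-high BEC), the log2 fold change of *Aqp1* was 4.48 (edgeR adjusted p = 5.20e-05). The part of endothelial RNA in the mucin-zero values was not tested beyond these numbers.

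**Figure D2:**
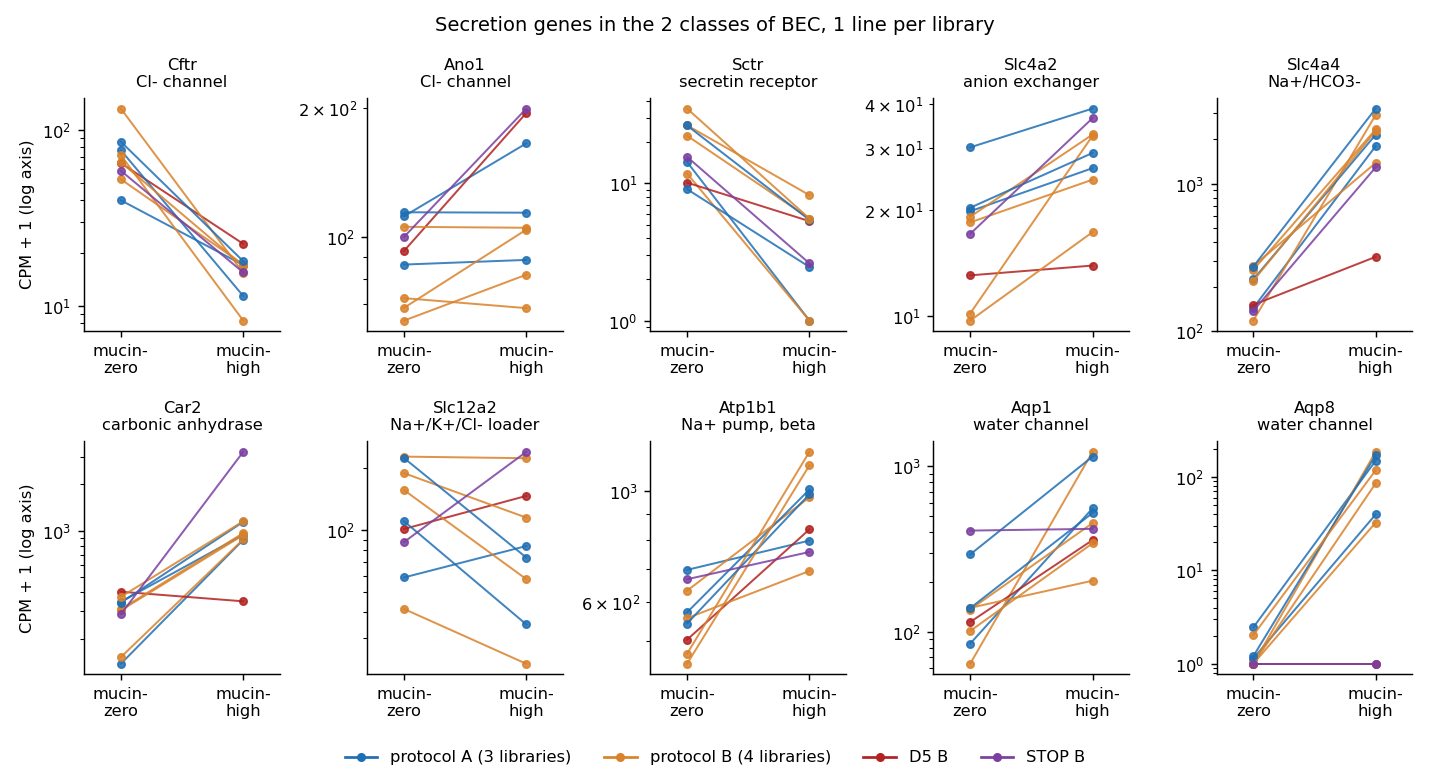
CPM + 1 on a log axis in mucin-zero and mucin-high BEC for each gene, with 1 line per library, coloured by protocol and with D5 B and STOP B apart. Lines of *Cftr* and *Sctr* all descend to mucin-high BEC, those of *Slc4a4*, *Slc4a2*, *Atp1b1* and *Aqp1* all ascend, and the *Aqp8* lines of D5 B and STOP B stay at 0 CPM.

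**Figure D3:**
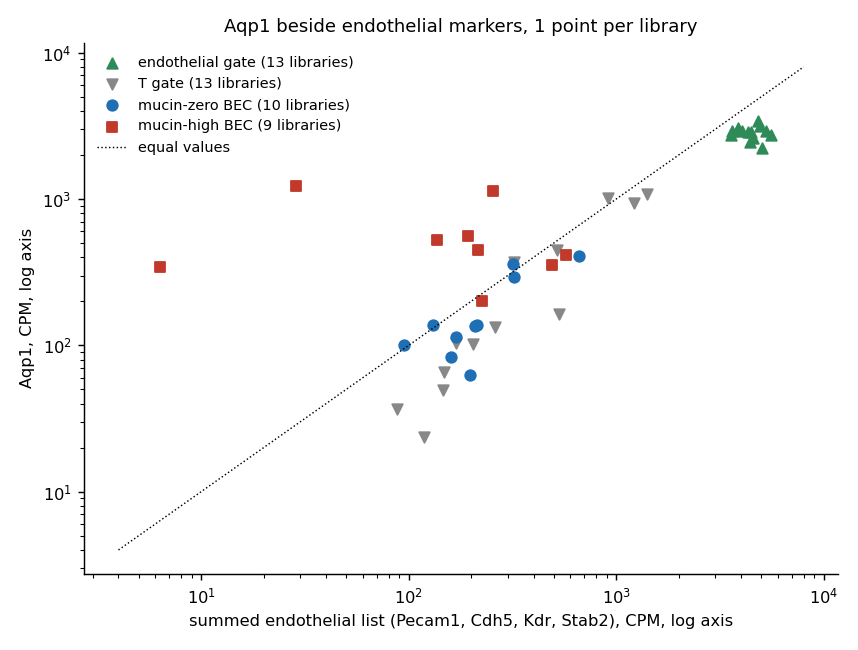
*Aqp1* CPM against the summed CPM of 4 endothelial markers on log axes, with 1 point per library and class and a dotted line of equal values. Mucin-zero BEC lie near that line with T and endothelial cells, at a median ratio of 0.659, while most mucin-high BEC lie above it at a median ratio of 2.87.

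An exact two-sided sign-flip permutation test of the log2 ratio per library, with no model of the counts, gave p = 0.00391 for *Cftr*, *Sctr*, *Slc4a2*, *Slc4a4*, *Atp1b1* and *Aqp1*, the smallest that 9 libraries allow. It gave 0.00781 for *Car2*, 0.0156 for *Aqp8*, 0.0469 for *Ano1* and 0.270 for *Slc12a2*, unadjusted over these 10 tests. Without D5 B and STOP B, edgeR called all 10 genes, 7 higher and 3 lower. The log2 fold change there was -2.24 for *Cftr*, -2.38 for *Sctr*, 0.90 for *Slc4a2*, 3.59 for *Slc4a4*, 2.06 for *Car2*, 0.96 for *Atp1b1*, 2.27 for *Aqp1* and 8.14 for *Aqp8*. Within protocol A (3 libraries) 8 of them and within protocol B (6 libraries) 9 of them were called. Calls were common among all genes too, with 19.7% of 12735 genes higher and 21.3% lower in the main fit. Over the alternatives tried, 1524 to 5523 genes were called.

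The few mucin-low BEC, read in the 2 libraries with over 20 of them, lay between the classes for most of the genes that separated them. In D9 A (44 cells) *Slc4a4* was at 725 CPM (exact Poisson 95% interval 656 to 799), between 223 in mucin-zero and 2146 in mucin-high BEC, and in D25 A (45 cells) at 519 CPM (469 to 573), between 272 and 3225. *Cftr* was at 26.6 CPM (14.9 to 44.0) in D9 A, between 75.6 and 10.4, and at 59.5 CPM (43.4 to 79.7) in D25 A, between 84.7 and 16.9. *Aqp8* was at 12.4 CPM (5.00 to 25.6) and 26.5 CPM (16.2 to 40.9), each between the values of the other classes. *Atp1b1* in D25 A, at 532 CPM (481 to 587), was no higher than in mucin-zero BEC, at 542 CPM. The intervals cover counting error only.

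For the 6 genes given here, shares of cells with at least 1 UMI ordered the classes as the CPM did. After each cell was thinned to 1500 UMIs, 1.77% of mucin-high and 9.68% of mucin-zero BEC held *Cftr* on average over libraries (19% and 47.1% unthinned), and 0.0105% of T cells, which should lack it. *Slc4a4* was held by 73.6% and 22.7% (95.7% and 77.4% unthinned) against 0.696% of T cells. *Sctr* was held by 0.255% and 3.87% (4.67% and 21.2% unthinned), and *Car2* by 67.5% and 29.2% (95.9% and 79.5% unthinned). *Aqp8* was held by 7.51% and 0.0291% (27.5% and 0.333% unthinned), beside 0.0327% of T cells (0.303% unthinned). The thinned mucin-zero share ran from 0 to 0.291% over libraries, and whether it is background was not tested. *Aqp1* was held by 41.3% and 11.5% (70.0% and 26.1% unthinned), and by 11.3% of T cells (13 libraries), so the mean mucin-zero share was hardly above that of T cells. The order differed by protocol: in CPM, mucin-zero BEC were above T cells in all 6 protocol B libraries (63.0 against 23.6 in D3 B, 407 against 133 in STOP B) and below them in all 4 protocol A libraries (292 against 1085 in D9 A). Within the mucin-high class, cells differed widely. In D25 A the middle 50% of 422 mucin-high cells held 14.0 to 46.7 *Slc4a4* UMIs per 10000 against 1.11 to 3.69 in mucin-zero cells, and *Aqp8* had a median of 0.35 per 10000 with 5.23 at the ninetieth percentile.

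Of the wider secretion machinery, 86 further genes were listed by role and 65 were tested, of which 30 were higher and 13 lower in mucin-high BEC (median log2 fold change 0.38), again beside 19.7% and 21.3% of all genes. Of 6 water channels listed, 3 passed the filter on low counts and were tested, and these 3 were higher. *Aqp3* among them had 89 UMIs in mucin-high and 3 in mucin-zero BEC. A gene nearly absent from 1 class passes the filter through the other, so its direction was largely fixed and the count is no support. The total and some role counts below also hold such genes and are no support either. *Slc26a3* had 5211 UMIs in mucin-high and 39 in mucin-zero BEC, *Slc9a3* 3653 and 30, and *Car4* 781 and 68. Of the chloride and potassium channels 7 of 11 were higher and 1 lower, and of the acid-base transporters 8 of 13 were higher and 3 lower. The cAMP pathway had 5 of 18 higher and 5 lower, and receptors had 4 of 11 higher and 2 lower. The other subunits of the sodium pump had 1 of 5 higher and 1 lower, and absorptive transporters 2 of 4 higher and 1 lower.

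*Slc26a3*, an apical exchanger of chloride for bicarbonate, was at 248 ± 215 CPM in mucin-high and 0.998 ± 1.29 CPM in mucin-zero BEC (SD, n = 9), with 5211 against 39 UMIs and a log2 fold change of 8.03 (SE 0.30, edgeR adjusted p = 3.59e-10). *Slc9a3*, the apical sodium-proton exchanger, was at 129 ± 106 against 0.841 ± 1.03 CPM. The membrane-bound carbonic anhydrases *Car4* and *Car9* were also higher, at 71.5 ± 81.1 against 1.49 ± 1.90 CPM and at 216 ± 110 against 7.42 ± 4.22 CPM. *Slc4a7*, another sodium-bicarbonate carrier, had a log2 fold change of 1.22 (SE 0.13), and *Slc4a3*, another anion exchanger, had -1.79 (SE 0.27). The chloride channel *Clcn2* had 2.30 (SE 0.19), and the potassium channels *Kcnq1*, *Kcnk1* and *Kcnk5* had 1.70, 1.05 and 0.83. The water channels *Aqp11* and *Aqp5* had 2.21 (SE 0.28) and 2.03 (SE 0.35). On the signalling side, the muscarinic receptor *Chrm3* (1.97) and the calcium-release channel *Itpr3* (1.33) were higher while its relative *Itpr1* was lower (-0.88). *Prkar2a*, a regulatory subunit of protein kinase A, was higher (0.996), and the cAMP phosphodiesterase *Pde4b* was lower (-1.44). *Slc10a2*, which takes bile acids up from the lumen, was higher (1.60), and *Slc5a1*, which takes up glucose with sodium, was lower, at 16.7 ± 19.5 against 121 ± 69.8 CPM (log2 fold change -2.95, SE 0.29). *Car8*, a relative of the carbonic anhydrases without their activity, was higher too (1.53). All 20 genes named here passed with edgeR adjusted p of 0.00431 or less. For *Slc26a3*, *Slc9a3* and *Car4*, nearly absent from mucin-zero BEC, the direction was largely fixed.

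**Figure D4:**
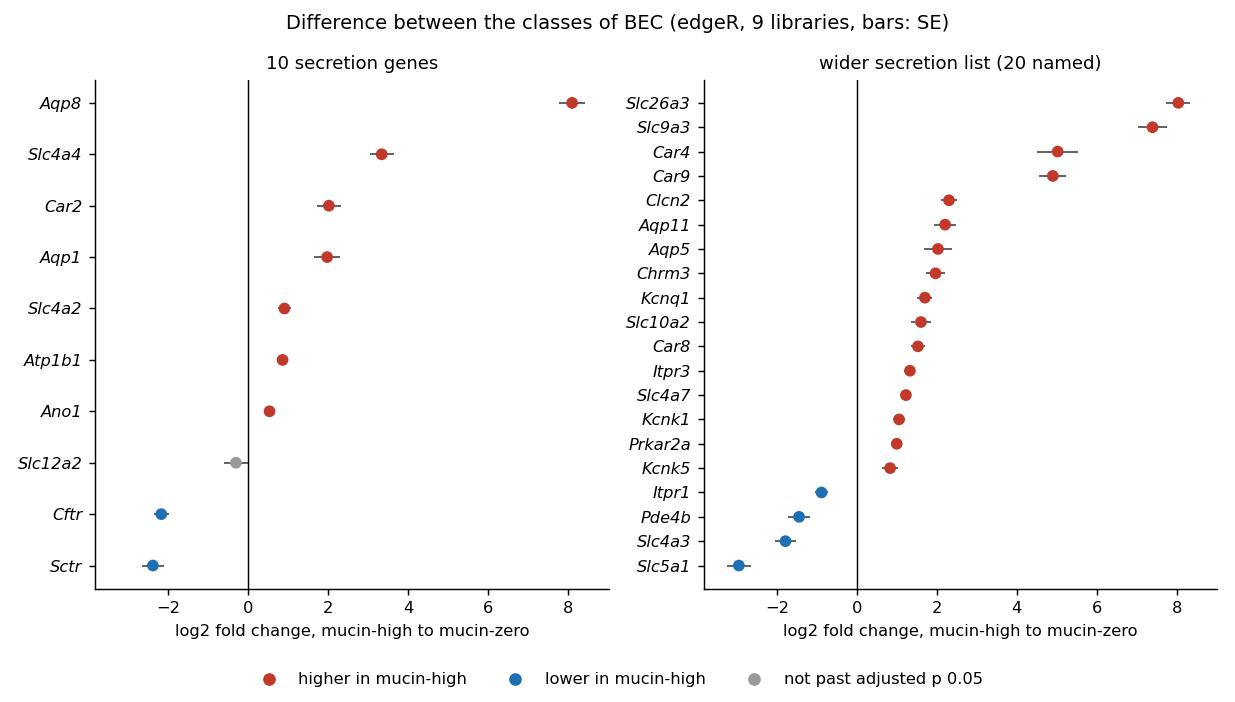
edgeR log2 fold change of mucin-high to mucin-zero BEC with its SE over 9 libraries, for the 10 secretion genes (left) and 20 genes of the wider list (right), coloured by call. *Aqp8* and *Slc26a3* lie farthest right at 8.10 and 8.03, and *Slc12a2* is the 1 gene without a call.

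Over the diet, the question was whether the genes changed in mucin-zero BEC, so that the share of mucin-high cells does not enter. Cells with a *Sox17* UMI still made up 2.48% to 13.4% of this class over its 10 libraries, the highest share in STOP B. Between onset (2 libraries) and progression (6 libraries), edgeR called 0 of 13651 genes (0% of those tested, 1090 at unadjusted p under 0.05, and 33 by DESeq2), so no gene here is said to change. *Slc4a4* was at 117 and 150 CPM at onset and at 218 to 275 CPM in all 6 progression libraries (246 ± 25.7, SD, n = 6). Its log2 fold change was 0.82 (SE 0.22, edgeR adjusted p = 0.482), and 0.19 over all BEC. *Slc12a2* was at 40.6 and 101 CPM at onset and 110 to 227 CPM at progression (181 ± 44.0), with a log2 fold change of 1.29 (SE 0.39, edgeR adjusted p = 0.498). That value was 0.79 without D3 B and 2.23 without D5 B, each leaving 1 onset library and read as a size only. With no filter on low counts *Slc12a2* (1.3, adjusted p = 0.000146) and *Sctr* (1.39, adjusted p = 0.0160) passed. How many of the 13651 genes kept all onset values below all progression values, as *Slc4a4* and *Slc12a2* did, was not counted. *Cftr* was at 51.4 and 63.8 CPM at onset and at 79.1 ± 28.4 CPM at progression (0.52, SE 0.33, adjusted p = 0.737), and *Sctr* at 10.8 and 9.11 against 26.0 ± 11.5 CPM (1.38, SE 0.55, adjusted p = 0.566). *Car2*, *Atp1b1*, *Ano1*, *Slc4a2* and *Aqp1* had log2 fold changes between -0.37 and 0.38, of which that of *Aqp1* was 2.95 without Scrublet doublets (adjusted p = 0.103), and *Aqp8* was too low to test.

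Steady state had 1 usable library, D0 A with 514 mucin-zero BEC, which is assumed to vary like the others. Against it the diet libraries had 11 of 13651 genes called (0.0806%), none of them among the 10, with 2465 at unadjusted p under 0.05 and 314 by DESeq2. *Car2* was at 137 CPM at D0 and 151 to 402 CPM in the 8 diet libraries (log2 fold change 1.19, SE 0.52, edgeR adjusted p = 0.259). It passed when D3 B was left out (1.52, adjusted p = 0.0371). *Cftr* was at 38.8 CPM at D0 and 47.6 to 131 CPM on the diet (0.71, SE 0.44, adjusted p = 0.421), and *Slc12a2* at 58.1 CPM against 40.6 to 227 CPM (1.0, SE 0.52, adjusted p = 0.336). *Aqp1* was at 83.6 against 63.0 to 360 CPM (1.52, SE 0.52, adjusted p = 0.188). DESeq2 called *Aqp1* (1.58, adjusted p = 0.0396). The log2 fold change was 0.43 for *Slc4a4* (SE 0.29, and 1.82 over all BEC), 0.14 for *Sctr* (SE 0.66), -0.11 for *Ano1* (SE 0.36), -0.31 for *Atp1b1* (SE 0.35) and -0.39 for *Slc4a2* (SE 0.44), with edgeR adjusted p of 0.455 to 0.938, and *Aqp8* was too low to test.

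The difference between mucin-high and mucin-zero BEC was also compared between onset and progression. In 12326 genes the interaction called 1 (0.00811%), the water channel *Aqp5* of the wider list, and none of the 10. The log2 difference was -0.96 (SE 0.47, edgeR adjusted p = 0.606) for *Cftr*, -1.26 (SE 0.67, adjusted p = 0.640) for *Aqp1* and 0.31 (SE 0.83, adjusted p = 0.962) for *Slc4a4*. It was -1.54 (SE 2.31) for *Aqp8*, -0.97 (SE 0.54) for *Slc12a2*, -0.51 (SE 0.28) for *Ano1*, 0.36 (SE 0.28) for *Atp1b1*, 0.51 (SE 0.60) for *Car2*, 0.58 (SE 1.18) for *Sctr* and 0.59 (SE 0.50) for *Slc4a2*, with adjusted p of 0.643 to 0.95.

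Recovery was compared with D19 B, made by the same protocol, in mucin-zero BEC of 1 library each and without a test. *Cftr* was at 57.6 CPM in STOP B (exact Poisson 95% interval 48.8 to 67.4) and 131 CPM in D19 B (120 to 143). *Slc4a4* was at 136 CPM (122 to 151) and 275 CPM (259 to 292), *Slc12a2* at 86.7 CPM (75.9 to 98.7) and 227 CPM (212 to 242), and *Sctr* at 14.6 CPM (10.4 to 19.9) and 25.4 CPM (20.7 to 30.9). All 4 were lower in STOP B with separate intervals. *Ano1*, *Atp1b1* and *Aqp1* were higher in STOP B, at 99.1, 665 and 407 CPM against 71.2, 556 and 138 CPM, and the summed endothelial markers were at 663 and 213 CPM in the same cells. The intervals of *Slc4a2* and *Car2* overlapped, and *Aqp8* had 0 UMIs in both. Over all BEC, the mucin-high included, *Car2* was higher in STOP B, at 838 CPM (807 to 869) against 446 CPM (428 to 465), and *Aqp8* had 0 UMIs against 35. Counting error is all these intervals cover, and D19 B held the highest *Cftr*, *Slc4a4* and *Slc12a2* of all 10 libraries. In D19 A, made by protocol A, *Cftr* was at 47.6 CPM, below STOP B. *Slc4a4*, *Slc12a2* and *Sctr* were above STOP B there, at 228, 184 and 42.0 CPM. Mucin-zero cells of STOP B held a median of 8970 UMIs against 15508 in D19 B.

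**Figure D5:**
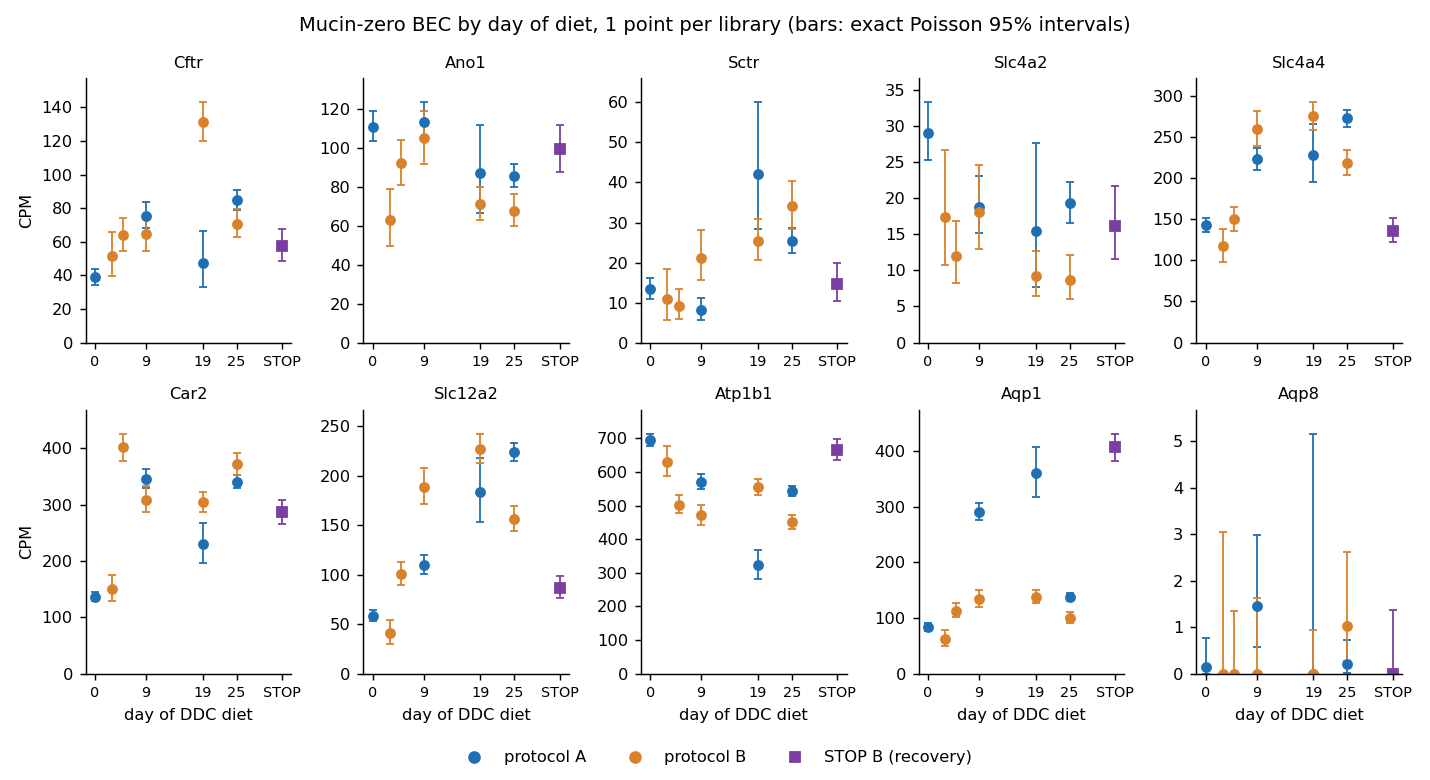
CPM of each gene in mucin-zero BEC against the day of DDC diet, with 1 point per library, exact Poisson 95% intervals, colour for the protocol and a square for STOP B, drawn apart on the right. *Slc4a4* and *Slc12a2* lie higher from day 9 on, at 218 to 275 and 110 to 227 CPM, than at days 3 and 5, and STOP B lies at 136 and 86.7 CPM. Neither difference between onset and progression was called in the main fit.

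The genes most like each of the 10 were sought by Pearson's r of log2(CPM + 1) over 19 sums (9 of mucin-high and 10 of mucin-zero BEC) among 6392 genes. These sums share libraries and differ by class, so r mainly orders genes by their class pattern and no p is given. Nearest to *Cftr* were *Bcl10* (0.95) and *Pawr* (0.94), and to *Sctr* were *Fam81a* (0.91) and *Gc* (0.90). *Slc4a4* had *Slc26a3* and *Cyp3a13* (both 0.97), *Car2* had *Egln3* (0.96) and *Uqcr10* (0.93), *Atp1b1* had *Zbtb7b* and *Mup20* (both 0.92), and *Slc4a2* had *Eif2s3x* (0.86) and *Limk2* (0.84). *Aqp8* had *Prxl2a* and *Cyp2f2* (both 0.96), and *Aqp1* had *Gngt2* (0.94) and *Rasgrp3* (0.91). *Slc12a2* had *Chic2* and *Dnajc10* (both 0.88). *Ano1* had *Agfg2* (0.86) and *Igfbp5* (0.76), the lowest of the second-placed values.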

How the data were processed

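Single-cell suspensions were sequenced as droplet 3′ libraries. For every barcode the files hold unnormalized UMI counts of each gene, as the authors deposited them. kallisto and GRCm38 are named in the submitters' processing notes, and the version is not given in the sources used here.

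From these counts, barcodes with at least 1500 UMIs were kept, classed by the rules given above and summed per library and class where at least 20 cells were present. Sums were tested with edgeR 4.0.16 in R 4.3.3 (TMM, filterByExpr, quasi-likelihood, Benjamini-Hochberg adjusted p under 0.05). Library was a block for the comparisons of classes and protocol a covariate for those of diet stages. Each SE given with an edgeR log2 fold change is the size of that change divided by the square root of the test's F statistic. It is not a fitted standard error. Over single values an exact sign-flip permutation test was used. Intervals are exact Poisson or Clopper-Pearson at 95%. Each BEC, mucin-high and mucin-zero cell counts once, and cells were never used as replicates. Other cells were gated by fixed markers, and the 11368 cells meeting more than 1 gate (13 libraries) were left out of the gates. Those in the 10 libraries with at least 20 BEC were kept among the cells BEC were compared with.

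The 10 genes, the 86 further genes and the comparisons were chosen with earlier results of these data known, among them *Aqp8* as a gene of the *Dmbt1*-expressing ducts, so no list is independent evidence. All 10 genes are named in every comparison. Of the 86, the text names those called between the classes of BEC with at least 20 CPM in either, up to 20 by size of log2 fold change, and for each of the 10 the 2 genes with the highest r. *Sox17*, *Aqp3*, *Aqp5* between stages, *Fastk* and *Nme7* were named outside this rule. Scrublet (scanpy 1.11.5) doublets stayed in and were removed in an alternative. DESeq2 1.42.0, no filter on low counts, other cell and mucin thresholds and thinned cells were also tried. So were removal of BEC of mixed lineage, no protocol term, all BEC and leaving out each library. The removal of D5 B and STOP B and the fits by protocol were added after the data were seen. The strand setting of the counting is not given in the sources used here. A further cholangiocyte marker and 1 of the motifs searched are not reported here.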

Additional observations from a re-analysis of the deposited data

Results flagged for a closer look

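*Aqp5*, a water channel of secretory epithelia and a gene of the wider list, was the 1 gene whose difference between mucin-high and mucin-zero BEC itself differed between onset and progression, with a log2 difference of -2.80 (SE 0.30, edgeR adjusted p = 0.0332). In mucin-high BEC it was at 233 CPM in D3 B and 155 CPM in D5 B, the onset libraries. At progression it was at 39.2 CPM in D9 A, 20.4 CPM in D9 B, 14.4 CPM in D19 B, 25.0 CPM in D25 A and 17.2 CPM in D25 B, all below both onset values. In mucin-zero BEC it lay between 4.60 and 14.5 CPM in the same libraries. The onset values rest on 130 and 36 UMIs from 22 and 21 mucin-high cells, and D5 B is a library that stood apart. *Aqp5* is named here because it was called, after its values were seen. Dixon's outlier test at the 95% level, run on 30 groups of values of the 10 genes, flagged 0 libraries. Single libraries still lay far from the others in mucin-high CPM. *Car2* was at 3234 CPM in STOP B against 1148 CPM at most elsewhere, and *Slc4a4* at 318 CPM in D5 B against 1289 CPM or more.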

How the results depend on the processing

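Between the classes of BEC, *Cftr*, *Sctr*, *Slc4a4*, *Car2*, *Atp1b1*, *Aqp1* and *Aqp8* passed in the same direction under every alternative that tested them. For *Aqp8* that direction was largely fixed. *Ano1* and *Slc4a2* missed the threshold without BEC of mixed lineage (0.29, edgeR adjusted p = 0.359, and 1.11, adjusted p = 0.0598), and *Ano1* also with classes from thinned cells (0.45, adjusted p = 0.0512). The number of genes called there moved from 5230 to 1524 without BEC of mixed lineage and to 2731 in protocol B alone. With 1 library left out at a time it was 4182 to 5401. Classes from thinned cells gave 3.62 for *Aqp8*, 2.69 for *Slc4a4* and -3.17 for *Sctr*. For BEC against other cells, protocols A and B gave -2.50 and -0.76 for *Aqp1*, 6.39 and 3.81 for *Atp1b1*, 1.99 and 3.29 for *Slc12a2* and 7.19 and 8.63 for *Cftr*, and *Aqp1* was -2.88 without BEC of mixed lineage.

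Between onset and progression the genes called were 33 with DESeq2, 337 with no filter on low counts (2 of the 10, *Slc12a2* with adjusted p = 0.000146 and *Sctr* with 0.0160), 1 without Scrublet doublets and 0 to 77 with a library left out, the 77 without D5 B. Directions of uncalled values turned for *Ano1* (0.038), *Atp1b1* (0.0042) and *Aqp1* (-0.58) without BEC of mixed lineage, and for *Aqp1* with all BEC (-0.71, but 2.95 without Scrublet doublets). They also turned for *Ano1* (0.11) and *Slc4a2* (0.010) without the protocol term and for *Car2* without D3 B (-0.41, up to 1.13 without other libraries). *Ano1* turned too without D5 B, D19 B or D25 B (up to 0.36, and down to -0.31 without other libraries). Over these alternatives *Slc4a4* ran from 0.19 to 1.1, *Cftr* from 0.16 to 0.79 and *Sctr* from 0.95 to 1.52.

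Between diet and D0, *Slc4a4* ran from 0.32 to 1.82 and *Aqp1* from 0.60 to 2.29. The genes called were 314 with DESeq2 (1 of the 10), 1045 with no filter (2 of the 10, *Car2* and *Aqp1*), 36 without Scrublet doublets, 0 without BEC of mixed lineage, 593 without the protocol term, 91 with all BEC and 0 to 519 with a library left out (0 to 1 of the 10), the 519 without D3 B. Directions turned without BEC of mixed lineage for *Ano1* (0.17), *Slc4a2* (0.32) and *Atp1b1* (0.19), and with all BEC for *Atp1b1* (0.12) and *Sctr* (-0.026). *Ano1* also turned without D3 B, D9 B or D25 A (up to 0.078, and down to -0.27 without other libraries). *Sctr* turned without D19 A (-0.19, up to 0.69 without other libraries). Leaving out D0 A could not be fitted, as it was the 1 steady-state library. For the difference of the classes between stages, 119 genes (1 of the 10, *Aqp1*) were called with no filter and 16 without D5 B, where *Slc4a4* (-1.43) and *Car2* (-0.86) turned. For recovery against D19 B, all BEC in place of mucin-zero BEC turned *Car2* (838 against 446 CPM), and the other genes with UMIs kept their direction. The causes were not tested.

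No paired analysis was possible because the labels give no replicate numbers that pair libraries across the diet stages. Classes of cells were compared within libraries, and protocol was a term of the stage fits. Usable steady state was protocol A alone and usable onset protocol B alone, so that term rests on the progression libraries, 3 of each protocol. *Aqp1* in mucin-zero BEC averaged 263 CPM in A and 124 CPM in B there. Steady state and recovery rest on 1 library each, onset on 2. Mucin-high sums of D3 B, D5 B and STOP B rest on 22, 21 and 29 cells. *Sctr* and *Aqp8* counts limit values of single libraries.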
